A study of Mus musculus with 6 samples.

Results

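Ribosome biogenesis and nucleolar genes were examined as a list of 42 genes in mouse liver, chosen by gene name: every array probe whose annotated name was 1 of the 42 was taken, which gave 62 probes of the 55681 on the array. Of the 42 genes, 39 were measured, by 56 probes, meaning that in at least 1 group a probe was called well above background in every mouse. These are 39 of the 17117 genes measured in the whole study. All 39 were in fact well above background on all 6 arrays. Dkc1, the pseudouridine synthase of small nucleolar RNA particles, and Utp15, a small-subunit processome protein, were not well above background on any array. Utp20, of the same processome, was so on 2 DMSO arrays and 0 CBZ arrays.

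The samples were whole livers of 6 C57BL6/J mice, 3 given CBZ at 250 mg/kg by mouth and 3 given DMSO by mouth, killed 2 hours later. The labels do not spell out the agent CBZ, and they give no sex, age or transgene for these mice. Total RNA of each liver was hybridised to its own 1-colour Agilent array, so each value rests on 1 array per mouse. Values are given as scaled intensity, the processed spot intensity divided by the 75th percentile of its array, and differences as log2 fold changes, CBZ minus DMSO, with limma's moderated standard error (±). Adjusted p is limma's after Benjamini-Hochberg adjustment over all 22352 measured probes, with 0.05 as the threshold.

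Ribosome biogenesis starts in the nucleolus, where RNA polymerase I copies the ribosomal DNA into a long precursor. Small nucleolar RNA particles modify that precursor, and large assemblies of helicases, scaffold proteins and nucleases fold and cut it into the RNAs of the small and the large subunit. The pathway is among the most costly of a growing cell, it is a classical target of the transcription factor Myc, and in liver it is known to be raised during regrowth after loss of tissue.

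The highest log2 fold changes of the list were those of Pes1 and Rrp1b, both of large-subunit assembly. Their probes are printed here because the value for Pes1 differed between its probes, and the Rrp9 probe because its gene is among those whose groups did not overlap. Positions follow the array design, on mouse build mm9, and the genes lie on the plus strand. The first sequence is a part of the brighter Pes1 probe (chr11:3879948-3880007), which starts at base 2851 of the transcript. The probe holds this stretch of 22 bases at positions 1 to 22 and again at 39 to 60, with 21 of 22 bases identical. The capital marks the base that differs, C13T, counted from the first base of the stretch. Of all 55681 probes, 87 (0.156%) were at least as repeated. The second is the dimmer Pes1 probe (chr11:3873303-3873362), from base 533 of the transcript. The third is the Rrp1b probe (chr17:32193829-32193888), and the last the Rrp9 probe, whose placement spans more than its 60 bases (chr9:106386845-106387461).
Pes1 brighter probe, repeated stretch: aagtatgtatggCtcacacttc
Pes1 dimmer probe: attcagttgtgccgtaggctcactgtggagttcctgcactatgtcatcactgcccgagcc
Rrp1b probe: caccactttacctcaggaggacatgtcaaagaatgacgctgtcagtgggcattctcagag
Rrp9 probe: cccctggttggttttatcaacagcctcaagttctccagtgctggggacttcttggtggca

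None of the 39 measured genes passed the threshold in either direction, but most lay slightly higher in CBZ. With the 75th percentile scaling 36 of 39 (92.3%) had a log2 fold change above 0, against 49.0% of all 17117 genes, and the median was 0.14 against -0.005 for all genes. With each array's median as the scale 25 of 39 were above 0, because that scale moved the median of all probes to -0.11. The members' median lay 0.14 above the median of all probes under both scalings. That gap is fixed and is no check, because changing the scale shifts every log2 fold change by the same amount. Limma called 0 of the 39 at an adjusted p under 0.05, where 0.0467% of all genes were called higher and 0.00584% lower. Before adjustment, p was under 0.05 for 5 of 39 (12.8%) on the higher side and for 0 on the lower side, where the shares of all genes were 5.0% and 3.96%. The count on the higher side was 1 with each array's median as the scale. It ran from 2 to 7 when 1 mouse was left out. The shares of all genes in those fits were not taken. In 7 of 39 (17.9%) all CBZ values lay above all DMSO values and in 0 below, where the shares of all genes were 6.26% and 6.68%. The smallest adjusted p among the members was 0.261, for Pes1, and the median was 0.915.

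The 39 log2 fold changes ran from -0.18 to 0.85, with moderated standard errors from 0.12 to 0.28. The 95% interval included 0 for 34 genes, and for 36 genes it excluded a 2-fold rise. The median within-group SD of the members was 0.16 on the log2 scale, against 0.18 over all genes. The lowest of the 6 arrays was a DMSO array in 35 of 39 genes (89.7%) and the highest a CBZ array in 28 (71.8%). Over all genes DMSO replicates 1 to 3 were the lowest array in 15.2%, 14.1% and 21.4%. CBZ replicates 1 to 3 were the highest in 13.5%, 22.3% and 13.6% of all genes. These counts partly restate the count of genes above 0.

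**Figure D1:**
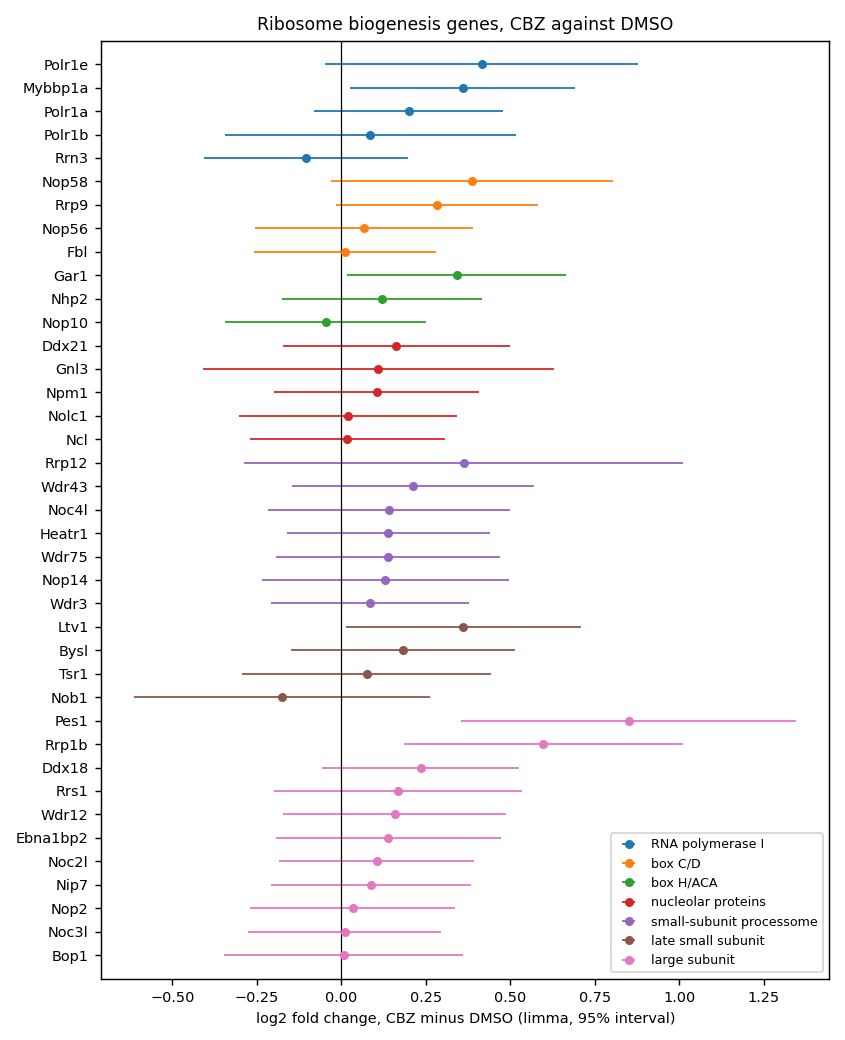
The log2 fold change (x axis, CBZ minus DMSO, limma, 75th percentile scaling) of the 39 measured genes with its 95% interval, ordered by role and coloured by it. Most points lie just right of 0 and 34 of 39 intervals cross it; with each array's median as the scale 25 of 39 points would lie above 0.

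Among RNA polymerase I genes, 4 of 5 had a log2 fold change above 0, with a median of 0.20. Mybbp1a encodes a nucleolar protein that binds Myb and takes part in ribosomal RNA synthesis and processing. Its scaled intensity was 23.1, 17.5 and 21.0 in DMSO replicates 1 to 3 and 24.1, 27.3 and 27.1 in CBZ replicates 1 to 3. Every CBZ value was above every DMSO value, though the lowest CBZ mouse was close to DMSO replicate 1. The log2 fold change was 0.36 ± 0.15 (limma's adjusted p = 0.484).

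Polr1a, the largest catalytic subunit of the polymerase, read 5.23, 4.62 and 5.02 in DMSO and 5.51, 5.90 and 5.65 in CBZ, at 0.20 ± 0.12 (limma's adjusted p = 0.746). The groups did not overlap here either. Polr1e, a subunit of its initiation and elongation module, read 1.76, 1.10 and 1.10 in DMSO and 1.54, 1.70 and 1.91 in CBZ, at 0.41 ± 0.20 (limma's adjusted p = 0.606). DMSO replicate 1 lay among the CBZ mice for this gene and the other DMSO mice lay below them. Polr1b, the second largest subunit, read 3.88, 2.63 and 3.01 in DMSO and 2.92, 3.096 and 4.05 in CBZ, at 0.09 ± 0.19 (limma's adjusted p = 0.967). Rrn3, the factor that makes the polymerase competent to initiate, was at -0.11 ± 0.13, and its groups overlapped.

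The box C/D particles, which guide methylation of ribosomal RNA, had 4 of 4 genes above 0, with a median of 0.17. Rrp9, a protein specific to the particle of U3 RNA that starts small-subunit processing, read 1.90, 2.02 and 2.03 in DMSO and 2.44, 2.17 and 2.66 in CBZ. All CBZ mice were above all DMSO mice, at 0.28 ± 0.13 (limma's adjusted p = 0.568). Nop58, a core scaffold of the particles, read 2.60, 2.29 and 2.32 in DMSO and 3.54, 2.38 and 3.67 in CBZ, at 0.39 ± 0.18 (limma's adjusted p = 0.586). CBZ replicate 2 stayed at the DMSO level while the other CBZ mice were higher. Fbl, the methyltransferase itself, read 6.32, 6.34 and 6.73 in DMSO and 6.33, 6.53 and 6.67 in CBZ, at 0.01 ± 0.12 (limma's adjusted p = 0.993). The groups coincided, and the interval of Fbl, from -0.26 to 0.28, leaves room only for changes of that size. Nop56, the partner of Nop58, was at 0.07 ± 0.14.

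Of the box H/ACA particles, which guide pseudouridylation, 3 of 4 core proteins were measured and 2 of them were above 0. Gar1 read 6.72, 5.40 and 5.60 in DMSO and 7.76, 6.74 and 7.90 in CBZ, at 0.34 ± 0.14 (limma's adjusted p = 0.502). The groups did not overlap, with CBZ replicate 2 only just above DMSO replicate 1. Nhp2, an RNA-binding core protein, read 38.6, 34.0 and 34.4 in DMSO and 38.0, 42.1 and 36.1 in CBZ, at 0.12 ± 0.13 (limma's adjusted p = 0.915). Nop10, the smallest core protein, read 42.2, 40.6 and 41.1 in DMSO and 42.2, 42.7 and 35.4 in CBZ, at -0.05 ± 0.13 (limma's adjusted p = 0.977). For both of these the groups overlapped, and CBZ replicate 3 was the lowest array for Nop10.

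The abundant nucleolar proteins lay near 0, with 5 of 5 above it and a median of 0.10. Ddx21, a helicase of ribosomal RNA synthesis and processing, read 2.96, 2.25 and 2.55 in DMSO and 2.60, 3.04 and 3.00 in CBZ, at 0.16 ± 0.15 (limma's adjusted p = 0.890). Npm1, nucleophosmin, a chaperone of the granular zone of the nucleolus, read 26.9, 27.5 and 22.4 in DMSO and 27.8, 28.1 and 26.4 in CBZ, at 0.10 ± 0.13 (limma's adjusted p = 0.938). Ncl, nucleolin, read 43.5, 39.5 and 38.4 in DMSO and 39.8, 43.9 and 39.1 in CBZ, at 0.02 ± 0.13 (limma's adjusted p = 0.988). In all 3 genes the groups overlapped. Gnl3, the GTP-binding protein nucleostemin, and Nolc1, a chaperone of small nucleolar particles, were at 0.11 and 0.02.

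In the small-subunit processome, the early assembly on the precursor RNA, 7 of 9 genes were measured and all 7 were above 0, with a median of 0.14 and with overlapping groups. Wdr43, a WD-repeat scaffold, read 3.71, 3.06 and 2.71 in DMSO and 3.33, 3.52 and 4.06 in CBZ, at 0.21 ± 0.16 (limma's adjusted p = 0.829). Rrp12, a repeat protein of subunit export, read 1.08, 0.56 and 0.46 in DMSO and 0.84, 0.77 and 0.91 in CBZ, at 0.36 ± 0.28 (limma's adjusted p = 0.849). DMSO replicate 1 was the highest mouse for Rrp12 and the other DMSO mice the lowest, so that the DMSO SD, 0.65 on the log2 scale, was the widest of the list. Wdr3, another WD-repeat scaffold, read 2.81, 2.40 and 2.38 in DMSO and 2.78, 2.59 and 2.66 in CBZ, at 0.08 ± 0.13 (limma's adjusted p = 0.953). Its probe was printed as 10 spots on each array, whose SD within an array was 0.035 to 0.084 on the log2 scale. The SD between mice was 0.13 in DMSO and 0.05 in CBZ, where each mouse value is the mean of its spots. Heatr1, Wdr75, Noc4l and Nop14, further scaffold and assembly proteins, lay between 0.13 and 0.14.

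In late maturation of the small subunit 3 of 4 genes were above 0, with a median of 0.13. Ltv1, an assembly factor that leaves the subunit in the cytoplasm, read 7.26, 5.65 and 5.44 in DMSO and 7.11, 8.03 and 8.26 in CBZ, at 0.36 ± 0.15 (limma's adjusted p = 0.512). Bysl, bystin, read 15.2, 11.97 and 11.4 in DMSO and 14.1, 14.3 and 15.1 in CBZ, at 0.18 ± 0.15 (limma's adjusted p = 0.853). For both genes DMSO replicate 1 lay within or above the CBZ mice and the other DMSO mice below them. Tsr1, a GTPase-like factor, read 1.51, 1.30 and 1.28 in DMSO and 1.68, 1.18 and 1.49 in CBZ, at 0.07 ± 0.16 (limma's adjusted p = 0.966). Nob1, the nuclease that makes the last cut of small-subunit RNA, had the lowest log2 fold change of the list, -0.18 ± 0.19.

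Assembly of the large subunit held the highest fold changes, with 11 of 11 genes above 0 and a median of 0.14. Pes1, pescadillo, read 3.37, 1.97 and 2.16 in DMSO and 3.95, 4.08 and 5.22 in CBZ. Every CBZ mouse was above every DMSO mouse, and DMSO replicate 1 lay closer to the lowest CBZ mouse than to the other DMSO mice. The difference was 1.80-fold, or 0.85 ± 0.22 on the log2 scale, with a 95% interval from 0.35 to 1.35 (limma's adjusted p = 0.261). Rrp1b, which encodes a nucleolar protein of large-subunit assembly, read 0.57, 0.42 and 0.52 in DMSO and 0.64, 0.75 and 0.93 in CBZ, at 0.60 ± 0.18 (limma's adjusted p = 0.333). Its groups did not overlap. Ddx18, a helicase, read 4.45, 3.75 and 4.07 in DMSO and 4.56, 4.92 and 4.94 in CBZ, at 0.24 ± 0.13 (limma's adjusted p = 0.672), again with no overlap.

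Pes1 works in one complex with Bop1 and Wdr12, and the log2 fold changes of these partners were nearer 0. Bop1 read 18.5, 17.7 and 13.3 in DMSO and 16.1, 17.2 and 15.9 in CBZ, at 0.01 ± 0.15 (limma's adjusted p = 0.996). Its groups overlapped fully, with DMSO replicates at both ends. Wdr12 was at 0.16 ± 0.15, from a probe of a complementary DNA that the array design places on chromosome 7; its other probe, on chromosome 1, was at 0.18 ± 0.14. Whether Pes1 differed from its partners was not tested. The other large-subunit factors were Rrs1, of the particle that carries the smallest ribosomal RNA, at 0.17, Ebna1bp2, an early scaffold, at 0.14, Noc2l at 0.10, Nip7 at 0.09, the RNA methyltransferase Nop2 at 0.03 and Noc3l at 0.01.

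The role medians depended on single mice and on the scale. Leaving out each mouse in turn, they ran from 0.15 to 0.24 for polymerase I, 0.10 to 0.22 for box C/D, 0.06 to 0.18 for box H/ACA, -0.02 to 0.14 for the abundant nucleolar proteins, 0.08 to 0.26 for the processome, 0.07 to 0.23 for late small-subunit maturation and 0.07 to 0.23 for the large subunit. The lowest value for the abundant nucleolar proteins, with 2 of 5 above 0, was that without DMSO replicate 3, where the large subunit had 9 of 11 above 0. With each array's median as the scale the medians were 0.10, 0.08, 0.02, 0.004, 0.04, 0.03 and 0.04 in the same order, with 3 of 5, 2 of 4, 2 of 3, 3 of 5, 6 of 7, 2 of 4 and 7 of 11 genes above 0. With slide row in the model 8 of 11 large-subunit genes were above 0.

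**Figure D2:**
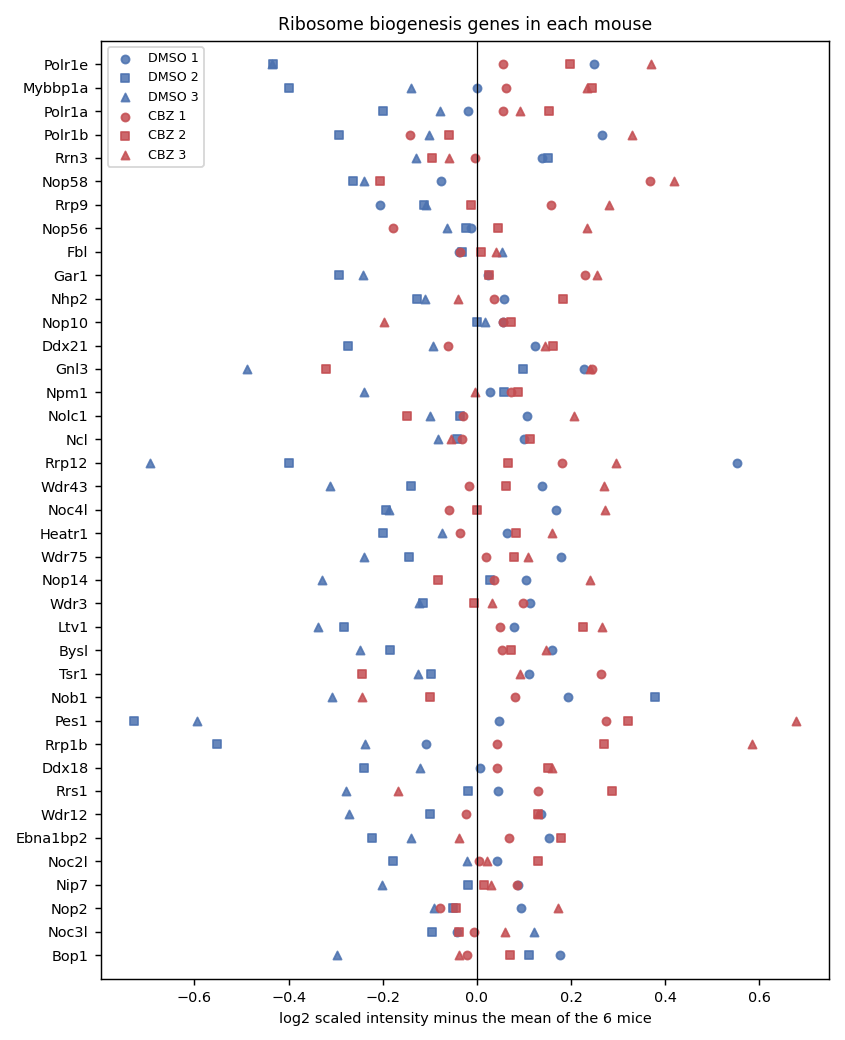
Each measured gene (row) in each mouse, as the log2 scaled intensity minus the mean of the 6 mice, with colour for the group and shape for the replicate number. DMSO replicates 2 and 3 lie left in most rows, and DMSO replicate 1 lies among the CBZ mice in many, for example in Ltv1 and Bysl.

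Probes of the same gene differed in places. Of the 12 genes with more than 1 measured probe, 8 had all probes on the same side of 0 and 4 had probes on both sides, namely Ebna1bp2, Nolc1, Nop56 and Npm1. Nop56 is among these only through a probe of a complementary DNA, at -0.003, that the array design places on chromosome 17, and its chromosome 2 probes were at 0.07 and 0.03. The dimmer probe of Pes1 read 0.91, 0.85 and 0.58 in DMSO and 0.88, 0.74 and 0.85 in CBZ, at 0.10 ± 0.19 (limma's adjusted p = 0.960). On it the groups overlapped, so the difference seen with the brighter probe, whose repeated stretch is printed above, was not seen with the probe nearer the start of the transcript. The mean of both Pes1 probes was at 0.48 (limma's adjusted p = 0.467).

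For Wdr43 the groups separated on the dimmer probe instead. It read 1.80, 1.29 and 1.59 in DMSO and 2.17, 2.19 and 2.59 in CBZ, at 0.58 ± 0.16 (limma's adjusted p = 0.291), and its groups did not overlap, unlike those of the brighter probe. The probes of Ebna1bp2 were at 0.14 ± 0.15, 0.11 ± 0.16 and -0.36 ± 0.20 from the brightest to the dimmest, with overlapping groups in each. The 5 probes of Npm1 ran from -0.14 to 0.20. A second Ddx18 probe, shifted by 2 bases along the genome, gave 0.22 ± 0.14 with overlapping groups. None of these probes passed limma's threshold.

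**Figure D3:**
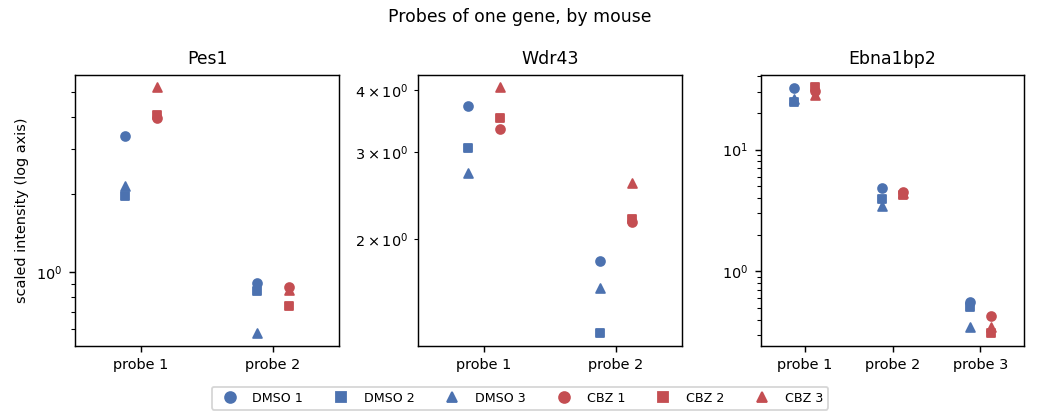
Scaled intensity (log axis) of each measured probe of Pes1, Wdr43 and Ebna1bp2 in each mouse, with probes ordered from the brightest. The groups separate on probe 1 of Pes1 and on probe 2 of Wdr43 and overlap on the others.

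The order of the individual mice recurred across the roles, and the DMSO mice were not alike. Averaged over the 39 genes, the deviation from the mean of the 6 mice was 0.090 in DMSO replicate 1, -0.145 in DMSO replicate 2 and -0.197 in DMSO replicate 3. It was 0.052, 0.053 and 0.147 in CBZ replicates 1 to 3. DMSO replicate 1 was thus higher than CBZ replicates 1 and 2 on this average. In 33 of 39 genes DMSO replicate 1 was above both other DMSO mice, against 38.7% of all genes, and the CBZ mean was above DMSO replicate 1 in 17 of 39, against 45.4% of all genes; both counts were chosen after the values were seen. Signal level went with this order too. With all genes split by mean signal into 4 bins of equal size, the 2 brightest bins hold 21 and 11 of the members, and there DMSO replicate 1 was above both other DMSO mice in 53.7% and 53.4% of all genes, against 14.0% in the dimmest bin. The CBZ mean was above DMSO replicate 1 in 30.2% and 23.9% of all genes of the brightest bins. The part of signal level in the members' order was not tested. Without DMSO replicate 1 the members' median log2 fold change was 0.24 with 34 of 39 genes above 0, and without DMSO replicate 3 it was 0.07 with 30 of 39 above 0. Leaving out any other mouse gave a median from 0.10 to 0.16.

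Marker genes of other liver cells varied between the mice as well. Of 8 markers of Kupffer cells and macrophages, the resident phagocytes, 7 were measured, and Cd163 was not. Their mean deviation was 0.69 in DMSO replicate 1, -0.33 and -0.45 in DMSO replicates 2 and 3, and 0.19, -0.05 and -0.05 in the CBZ mice. Their summed scaled intensity ran from 96.2 to 208 in DMSO and from 120 to 147 in CBZ. Of 10 markers of cycling cells 7 were measured and all 7 were higher in CBZ, with a median log2 fold change of 0.17 and none past the threshold; with each array's median as the scale 5 of 7 were. Their mean deviation was 0.09, -0.23 and -0.26 in DMSO and 0.29, 0.04 and 0.08 in CBZ, and their sum ran from 14.5 to 19.1 and from 16.7 to 19.5. Of the cycling markers, Top2a, Ccnb1 and Cdk1 were not well above background on all arrays of either group. Mki67, Birc5, Ccna2 and Rrm2 were among those measured. Only 5 of the 7 measured were well above background on all 6 arrays, and these 5 were all above 0. The filter let the others in through 1 group, so they could enter where they were high. Of 9 markers of stellate cells and fibroblasts 8 were measured, and Des was not. Among those well above background on all 6 arrays 6 of 7 were above 0. Over the 8 measured, 7 were above 0 with a median of 0.27, and 6 with each array's median as the scale. Their mean deviation was -0.12, -0.16 and -0.08 in DMSO and 0.02, 0.42 and -0.07 in CBZ, so that CBZ replicate 2 was the highest mouse, and their sum ran from 202 to 236 and from 190 to 301. Of the endothelial markers, 8 of 8 measured, 6 were above 0 with a median of 0.04. Their mean deviation was 0.18, -0.09 and -0.29 in DMSO and 0.08, 0.26 and -0.13 in CBZ, with sums of 69.5 to 108 and 77.1 to 103. Lymphocyte markers, 4 of 8 measured, had deviations of -0.11, -0.01 and -0.03 in DMSO and 0.20, -0.02 and -0.04 in CBZ, and sums of 5.46 to 5.86 and 5.62 to 6.09. Neutrophil markers, 5 of 6 measured, had deviations of 0.24, 0.42 and -0.82 in DMSO and 0.13, -0.08 and 0.11 in CBZ, and sums of 3.42 to 6.70 and 4.76 to 5.24. Bile duct markers, 3 of 5 measured, had deviations of -0.03, -0.35 and 0.24 in DMSO and 0.34, -0.09 and -0.11 in CBZ, and sums of 2.17 to 3.32 and 2.99 to 4.08. No marker list had the same order of mice as the ribosome biogenesis genes, whose highest mouse was CBZ replicate 3. The Kupffer and cycling lists also had DMSO replicates 2 and 3 lowest. Their highest mice were DMSO replicate 1 and CBZ replicate 1, respectively. The part of any marker list in the result was not tested. Hepatocyte markers were all measured, 7 of 7, at sums of 4348 to 4626 in DMSO and 4391 to 4953 in CBZ. Their mean deviation was 0.04, 0.02 and -0.07 in DMSO and -0.04, 0.11 and -0.06 in CBZ. In whole liver, fewer cells of a type and less RNA per cell cannot be told apart.

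**Figure D4:**
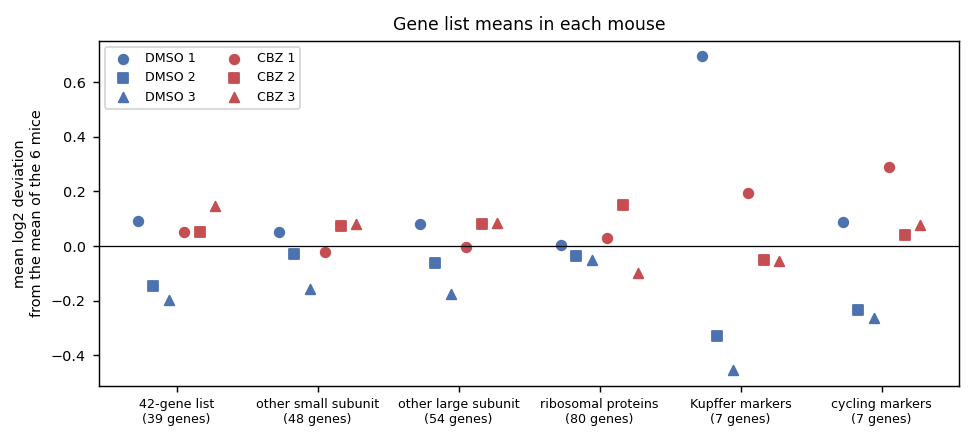
Mean log2 deviation of 6 gene lists from the mean of the 6 mice (y axis), 1 point per mouse. DMSO replicate 1 lies above the other DMSO mice in each list, by most in the Kupffer markers at 0.69, and CBZ replicate 2 is the highest mouse for ribosomal protein genes.

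Arrays lay in rows of 1 slide, with the 3 DMSO mice and CBZ replicate 1 in row 1 and CBZ replicates 2 and 3 in row 2. With row in the model, so that only CBZ replicate 1 is set against DMSO, the members' median was 0.10 and 29 of 39 were above 0. Row and mouse cannot be told apart in that value, and row 2, which held CBZ arrays only, gives no comparison. Signal level also went with the sign of the change over all genes. In the same 4 bins, the share above 0 from the dimmest to the brightest bin was 60.7%, 52.5%, 44.2% and 38.8%. The members lay mostly in the brighter bins, 0, 7, 21 and 11 of them, and 6 of 7, 20 of 21 and 10 of 11 were above 0 there.

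Further genes of the same pathway, which are no members of the list, were read out as 6 lists of 184 genes. Of these 160 were measured, and 104 (65.0%) were above 0 with a median of 0.05, under the 75th percentile scaling; with each array's median as the scale 61 of 160 were above 0 and the median was -0.05. Limma called 0 of them, and an unadjusted p under 0.05 was found for 14 higher (8.75%) and 2 lower genes, where the shares of all genes were 5.0% and 3.96%. In 20 (12.5%) all CBZ values lay above all DMSO values, and in 3 below, where the shares of all genes were 6.26% and 6.68%. These counts include genes that passed the filter through 1 group only. Among those well above background on all 6 arrays 101 of 154 were above 0, with a median of 0.05. Without DMSO replicate 3 the median was 0.010 and 84 of 160 were above 0, without DMSO replicate 1 it was 0.11 with 123 of 160, and with slide row in the model 0.002 with 82 of 160. Further small-subunit factors were above 0 in 36 of 48 and large-subunit factors in 39 of 54, but further polymerase I subunits and factors in 3 of 15. The exosome and nucleases of ribosomal RNA had 14 of 23 above 0, the small nucleolar particles 8 of 12 and the host genes of small nucleolar RNAs 4 of 8.

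The genes with the smallest p of each of these lists did not pass limma's threshold. Taf1d, of the promoter-binding factor of polymerase I, was at 0.82 ± 0.15 (limma's adjusted p = 0.134), with 1 DMSO array well above background. Polr1c, a subunit shared by polymerases I and III, was at -0.29 ± 0.15 (limma's adjusted p = 0.628). Among assembly factors, Nle1, a WD-repeat protein of the large subunit, was at 0.65 ± 0.15 (limma's adjusted p = 0.219) and Ccdc86 at 0.56 ± 0.16 (0.307). Of the small-subunit factors, the methyltransferase Bud23 was at 0.62 ± 0.16 and Nol7 at 0.42 ± 0.13 (limma's adjusted p = 0.267 and 0.334), each with 2 DMSO arrays well above background. Rpp38, a protein of RNase P and MRP, was at 0.75 ± 0.19 and Exosc8, an exosome ring subunit, at 0.54 ± 0.16 (limma's adjusted p = 0.245 and 0.317). Naf1, an assembly factor of H/ACA particles, was at 0.29 and Znhit3, of box C/D assembly, at 0.22 (limma's adjusted p = 0.592 and 0.740). The host gene Snhg15 was at 0.56 ± 0.15 and the host gene Gas5 at -0.32 ± 0.12 (limma's adjusted p = 0.279 and 0.447).

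Of 11 regulators of the pathway, the Myc family, its partners and Cdkn2a, 7 were measured. Mycn, Mycl, Mxd3 and Cdkn2a were not. Of the 7, 4 were above 0, the median was 0.005 and 1 passed the threshold. Myc read 0.60, 0.44 and 0.60 in DMSO and 1.79, 1.40 and 1.93 in CBZ, with every CBZ mouse above every DMSO mouse. It rose 3.12-fold (1.64 ± 0.18, limma's adjusted p = 0.030). Its log2 fold change ran from 1.07 to 1.78 over 18 fits, and limma's adjusted p passed the threshold in 8 of them, from 4.37e-05 to 0.507; of the 6 fits without a mouse it passed in 1. The other regulators did not pass. Mxd1, a partner of Max that opposes Myc, read 2.15, 2.56 and 1.89 in DMSO and 1.33, 1.19 and 0.98 in CBZ, at -0.91 ± 0.17 (limma's adjusted p = 0.136). Its CBZ values lay below all DMSO values, and so did those of Mxd4 (-0.25 ± 0.13), of the same family, and of Max (-0.18 ± 0.12), the common partner. Mga, a further Max partner, was at 0.46 ± 0.14 with all CBZ values above DMSO, and Mlx and Mnt were at 0.02 and 0.005. These other 6 were named after their values were seen.

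Myc binds the E-box CACGTG, and the promoters of the members were searched for these letters, which read the same on both strands. The windows held 250 bases before and 50 after the start in RefSeq on GRCm38.p6. Of the 37 members with a window 8 (21.6%) held the motif, against 2187 of 27025 genes (8.09%). The 27025 are all RefSeq genes with a window, whether or not they were measured in liver. No share among measured genes was taken, so the sets are unlike. Of these 8 genes, 6 held it after the start and 2 before it. The sites are printed with up to 10 bases on either side and the motif in capitals, in the gene's own direction, to show that they differ in the letters around it. Their positions, in the order printed, were chr10:13193094-13193119 (minus strand), chr11:72441357-72441376 (plus), chr6:125131813-125131838 (plus), chr11:3963967-3963992 (plus), chr16:13780474-13780499 (plus), chr16:13780641-13780666 (plus), chr11:74898094-74898119 (plus), chr10:88826765-88826787 (minus) and chr17:71616222-71616247 (plus).
Ltv1: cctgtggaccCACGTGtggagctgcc
Mybbp1a: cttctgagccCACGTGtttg
Nop2: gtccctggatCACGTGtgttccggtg
Pes1: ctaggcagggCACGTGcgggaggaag
Rrn3, first site: gcgccaaggtCACGTGcacacgcctc
Rrn3, second site: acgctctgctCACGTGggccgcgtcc
Tsr1: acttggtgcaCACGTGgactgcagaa
Utp20: gcactaactaCACGTGaggaaaa
Wdr43: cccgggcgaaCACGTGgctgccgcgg

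The array values of genes with and without the motif spanned overlapping ranges. The 7 measured genes with it had a median log2 fold change of 0.21, from -0.11 for Rrn3 to 0.85 for Pes1, and 6 were above 0. The 27 measured genes whose windows lacked it had a median of 0.14, from -0.18 to 0.60, and 25 were above 0. Of the measured genes, the 5 with the motif after the start were Pes1 at 0.85, Mybbp1a at 0.36, Ltv1 at 0.36, Wdr43 at 0.21 and Tsr1 at 0.07, and the 2 with it before the start were Nop2 at 0.03 and Rrn3 at -0.11. Dimmer probes of the same genes gave 0.10 for Pes1, 0.58 for Wdr43 and 0.13 for Tsr1. These values are a description of few genes, and the sides of the start were not tested against each other. A match of letters is not a measured binding site.

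**Figure D5:**
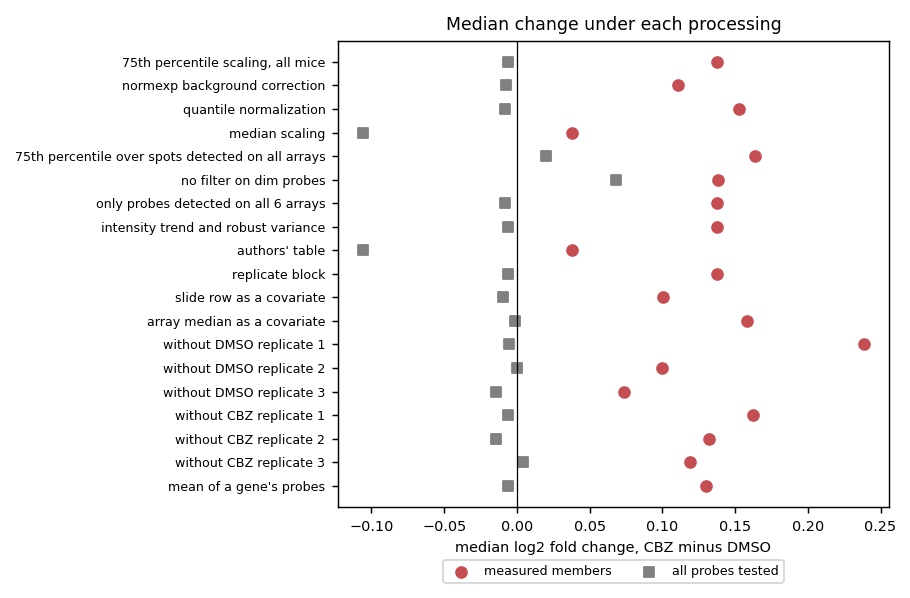
Median log2 fold change (x axis, CBZ minus DMSO) of the measured members and of all probes tested under each processing (rows). The members' median stays right of that of all probes in each row, from 0.04 with the array median as the scale to 0.24 without DMSO replicate 1. Rows that differ only in the array's scale have the same gap by construction.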

How the data were processed

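The deposited scanner files give an intensity per spot on a linear scale. Per the file headers, spots were extracted with Agilent Feature Extraction 10.7.3.1 (protocol GE1_107_Sep09), and the processed intensity is background-subtracted. The deposited table of the authors holds a ratio, each processed intensity over its array's median (largest relative deviation 2.44e-06, column medians 1), and was an alternative only.

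Control and outlier-flagged spots were left out, spots of a probe averaged, and log2 intensity minus the array's 75th percentile was fitted with limma 3.58.1 in R 4.3.3, CBZ against DMSO, on 22352 probes. The brightest probe stood for a gene. Array precision is limited by 3 mice a group, and the labels do not say how the mice were housed, so p-values measure the spread between these mice. Across arrays 42.6% to 45.8% of spots were well above background, the 75th percentile was 158 to 191, 0 spots were saturated, and correlations between arrays were 0.988 to 0.993. Probe names came from the files; 58 of 62 member probes also matched RefSeq by accession.

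On simulated data of these 22352 probes the fit recovered 61.2% of 2-fold, 94.2% of 4-fold and 98.7% of 8-fold changes, with 5.61% of calls false. Each of the 10 runs held 200 changed probes and independent noise. Recovery depends on how many probes change, and far fewer than 200 were called in the real data. Changes smaller than 2-fold were not simulated. The members and lists were chosen with earlier results of these data known, and the list of ribosomal protein genes after the files were read. Mouse values are printed for the 2 smallest p and the largest p of each role and for genes without overlap, 23 in all. Of each further list, genes past the threshold or else the 2 with the smallest p, and Myc, are given. Alternatives were normexp (offset 50), quantile, median and detected-spot scaling, the filter, a variance trend, the authors' table, the replicate block, slide row, probe means, a threshold of 0.10 and leaving out each mouse. The array median as a covariate was added after seeing the data.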

Additional observations from a re-analysis of the deposited data

How the results depend on the processing

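Limma called 0 members under every alternative run, at a smallest adjusted p of 0.067, for Pes1 with normexp. Of the 39 members, 23 were higher and 2 lower in all 18 fits that used the brightest probe, and 14 took both signs. Of 414 values of the named members under alternatives, 384 kept their direction and 30 reversed. The variance trend, the changes of the filter and the replicate block leave a probe's log2 fold change as it was. Their values could not reverse, and the authors' table repeats median scaling. The 384, and the 23 and 2 above, therefore count some fits that were no separate check. The members' median ran from 0.04 with median scaling to 0.24 without DMSO replicate 1, and 25 to 36 of 39 were above 0; without the filter 39 of 42 were. With normexp Bop1 was at -0.048 and Fbl at -0.029. With median scaling and the authors' table Bop1 was at -0.093, Fbl at -0.090, Ncl at -0.082, Polr1b at -0.014, Tsr1 at -0.025 and Wdr3 at -0.016. With slide row Bop1 was at -0.017, Fbl at -0.031, Ncl at -0.023, Polr1b at -0.099 and Nop10 at 0.031. Leaving out 1 mouse moved Bop1 from -0.14 to 0.097, Fbl from -0.0083 to 0.039, Ncl from -0.034 to 0.071, Nop10 from -0.095 to 0.040, Polr1b from -0.058 to 0.24 and Tsr1 from -0.039 to 0.22.

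Over all probes limma called 12 higher and 2 lower. The counts were 76 and 54 with normexp, 5 and 2 with quantile normalisation, 60 and 71 with median scaling and the authors' table, 6 and 0 with detected spots, 0 and 0 without the filter, 31 and 12 with probes detected on all 6 arrays, 83 and 91 with the variance trend, 4 and 3 with slide row, 7 and 1 with the array median as a covariate and 37 and 21 at a threshold of 0.10. Leaving out 1 mouse gave 0 to 22 higher and 0 to 8 lower. The cause was not tested. Median scaling used a variance common to all probes, so its p-values do not measure each gene's spread.

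The replicate block gave 9 higher and 1 lower and 0 members. Between DMSO and CBZ mice of the same replicate number the correlations of deviations were -0.24, 0.02 and 0.18. They were not tested, so whether the replicate numbers pair the mice was not settled.

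With 3 mice a group the 95% interval of a member reached from 0.27 to 0.65 on either side of its log2 fold change. The adjusted threshold asks for more: Pes1, at 0.85, was not called, and 61.2% of simulated 2-fold changes were. The simulation held 200 changed probes in each run, so this share need not hold for the real data. Dkc1 and Utp15 were not well above background, and nothing can be said of their direction.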

Other observations

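Genes of cytosolic ribosomal proteins, the protein parts of the subunits that the pathway builds, were a list drawn up after the files were read. They were picked by name from the measured genes only, 80 in all, so the list does not show how many such genes went unmeasured. At the threshold limma called 0 of the 80, and none had an unadjusted p under 0.05 in either direction. With the 75th percentile scaling 70 of 80 were above 0 at a median log2 fold change of 0.04, and with each array's median as the scale 16 of 80 were, at a median of -0.05. CBZ replicate 2 was the highest array for 70 of the 80 genes, against 22.3% of all genes, and CBZ replicate 3 the lowest for 48, against 21.1% of all genes. Of the 80, 78 lie in the brightest of 4 bins of all genes by mean signal. In that bin CBZ replicate 2 was the highest array for 38.3% of genes and CBZ replicate 3 the lowest for 34.1%, so part of this order is shared by genes of like signal. Without CBZ replicate 2, 29 of 80 were above 0 and the median was -0.02. CBZ replicate 3 was the highest array for 16 of the 39 ribosome biogenesis genes and the lowest for 1, so the order of the CBZ mice was not the same in the biogenesis genes as in the genes of the ribosomal proteins.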
